A study of Mus musculus with 64 samples.

Results

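Gene expression in the hippocampus was compared with that in the frontal cortex of the same wild-type (WT) mice at postnatal week (PWK) 1, over all genes of the deposited table. The comparison took the 4 hippocampal and 4 cortical WT libraries of that age, 8 of the 64 libraries of the study, and libraries with the same replicate number were paired as both regions of 1 mouse. Of the 18432 genes in the table, 18362 had a mean of at least 1 normalized count in these 8 libraries and were tested. Mice heterozygous for a *Cyfip2* Arg87Cys knock-in (KI, *Cyfip2* +/R87C) and their WT littermates were sampled at PWK 1, 7, 14 and 28, with 4 mice for each age and genotype. Frontal cortex and hippocampus were dissected from both hemispheres, and RNA of the bulk tissue was sequenced. All groups used here were C57BL/6N mice, group housed, with brains taken in the afternoon and no treatment named in the labels. The WT mice at PWK 1 carried no engineered allele, and the KI mice at PWK 1 and the WT mice at PWK 7 served as comparisons. A difference is always the log2 value in hippocampus minus that in cortex, after adding 1 normalized count, so that positive values mean higher in hippocampus. Calls were made with limma, with the mouse as a block, where the p adjusted by Benjamini-Hochberg over all genes tested was under 0.05. In bulk tissue, fewer cells of a type and less RNA per cell cannot be told apart.

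The hippocampus and the neocortex arise from neighbouring parts of the embryonic dorsal telencephalon. In the mouse the hippocampus is built from pyramidal neurons of the CA fields and from granule neurons of the dentate gyrus, and granule neurons are still being born in the first weeks after birth. The neocortex is layered, with intracortical projection neurons above and neurons that project to thalamus, brain stem and spinal cord below, over a transient subplate.

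The libraries of both regions were of like depth. The estimated depth was 33.42 to 36.75 M reads per library in cortex and 33.26 to 36.63 M in hippocampus (exact paired permutation test, two-sided, p = 0.875, n = 4 mice). The normalized values summed to 30.45 to 32.27 M in cortex and to 29.23 to 30.1 M in hippocampus. This total was lower in hippocampus in 4 of 4 mice, and between 148 and 248 genes were listed at 0 in a cortical library against 102 to 124 in a hippocampal one (exact paired permutation test, two-sided, with 2 of the 16 sign assignments as extreme for each, the smallest share that 4 pairs allow, which is above 0.05). No pair of libraries was a copy, with a highest correlation of 0.9893.

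Genes of neighbouring tissues stood high in some libraries. Cortical replicate 1 stood apart in genes of striatal projection neurons, whose cells lie under the frontal cortex. Its summed level of the 16 striatal genes was 21640 normalized counts, against 6136, 6244 and 6719 in the other cortical libraries and 5010 to 5541 in hippocampus. *Penk*, the precursor of enkephalins, was at 1418, 125, 143 and 150.5 normalized counts in the 4 cortical libraries, and *Six3*, a transcription factor of striatal neurons, was at 205, 3.25, 2.12 and 0. *Ppp1r1b*, which encodes the dopamine-regulated phosphatase inhibitor DARPP-32, was at 3758, 529.6, 655 and 822 in cortex and 366, 381, 366 and 278 in hippocampus. Each of these genes was highest in cortical replicate 1, by far for *Penk* and *Six3*. Over the 12937 genes with a mean of at least 100 normalized counts, this library stood apart from the other 3 cortical libraries in 3.46%, against 0.796 to 1.95% for the other 7 libraries. The log2 difference of *Ppp1r1b* was -1.56 (adjusted p = 0.018), -0.96 (adjusted p = 0.00324) without replicate 1 and not called without replicate 4 (adjusted p = 0.066). *Drd1*, the D1 dopamine receptor, was at 841, 321, 338 and 372 in cortex and 111, 125, 121 and 106 in hippocampus. It was lower in hippocampus, with log2 differences of -1.89 ± 0.23 (SE, n = 4 mice, adjusted p = 0.000589) and -1.54 (adjusted p = 3.64e-05) without replicate 1. For *Penk* the log2 difference was -0.16 (adjusted p = 0.845) and turned to 0.69 without replicate 1 (adjusted p = 0.00412). For *Drd2*, the D2 receptor, it was -0.42 (adjusted p = 0.522) and 0.28 (adjusted p = 0.334) without replicate 1.

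Every hippocampal library, in turn, was high in genes of the choroid plexus, the secretory tissue of the ventricles. The 14 choroid plexus genes summed to 28340, 41950, 35030 and 11900 normalized counts in the 4 hippocampal libraries and to 261.7 to 364.4 in the cortical ones, and 14 of the 14 were called higher in hippocampus, against 16.6% of all genes tested. *Ttr*, the thyroid hormone carrier transthyretin, was at 24.3, 20.6, 20.1 and 15.6 in cortex and at 25670, 38000, 31870 and 10470 in hippocampus. It made up most of the list sum in each of these hippocampal libraries, so the sum mainly follows *Ttr*. Hippocampal replicate 4 was lowest and replicate 2 highest, and the KI hippocampus spanned 469.5 to 35470 in the same sum at PWK 1. Ependymal genes, of the ciliated cells that line the ventricles, summed to 221.6 to 535.5 in cortex and 895.3 to 1399 in hippocampus. Of these, 10 of 11 were called higher, or 8 without mouse 2, 3 or 4. Meningeal and fibroblast genes summed to 12640 to 20980 in cortex and 22640 to 34710 in hippocampus, with 10 of 15 called higher and none lower. Without mouse 1, 14 were called higher, without mouse 3, 7, and without mouse 2 or 4, 8. Genes whose 4 hippocampal libraries followed the same order as *Ttr* made up 4.5% of all genes tested and 26% of the 100 genes at least 8-fold higher in hippocampus. These 100 include *Ttr* itself and other choroid plexus list members, such as *Folr1*, *Otx2*, *Kcne2* and *Clic6*. The part of these tissues in single results was not tested.

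**Figure D1:**
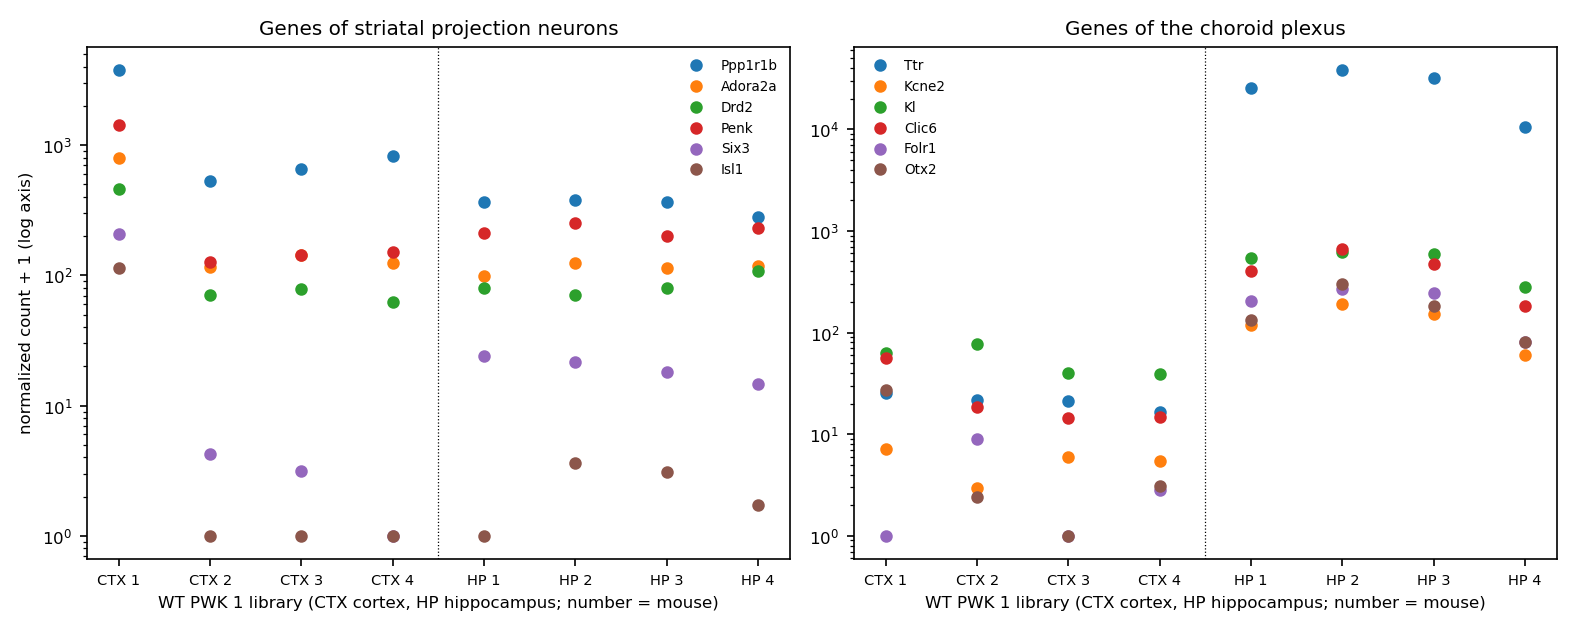
Normalized counts plus 1, on a log axis, in each of the 8 libraries for 6 striatal genes (left) and 6 choroid plexus genes (right). Cortical replicate 1 lies highest in the striatal genes, with Penk at 1418 against 124.9 to 150.5 in the other cortical libraries, and the 4 hippocampal libraries lie highest in the choroid plexus genes.

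The regions differed in many genes, mostly by small amounts. Of the 18362 genes tested, 6591 (35.9%) were called, 3040 (16.6%) higher and 3551 (19.3%) lower in hippocampus. The median size of the log2 difference was 0.43 among the called genes and 0.203 among all genes tested. At least 2-fold differences were found in 1282 genes, of which 825 (4.49% of those tested) were higher and 457 (2.49%) lower in hippocampus. Differences of at least 8-fold were found in 100 genes higher and 22 lower. Among the 13868 genes with a mean of at least 50 normalized counts, 649 were called at 2-fold or more, so many of the 1282 were weakly expressed. The 4 hippocampal libraries did not overlap the 4 cortical ones in 6279 genes (34.2%). Higher genes made up 46.1% of the calls, but 66.6% when each library was scaled to the same total instead of by the authors' factors, so the balance of directions depends on the scaling. Without mouse 1, 7171 genes were called, and 1212 of the 1282 genes remained called. Exons of several genes named below, among them *Prox1*, *Emx2*, *Nr2f2*, *Nr3c2*, *Bdnf*, *Gabra5* and *Krt80*, overlap a transcript on the other strand, and whether strand was used in counting is not given in the sources used here.

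**Figure D2:**
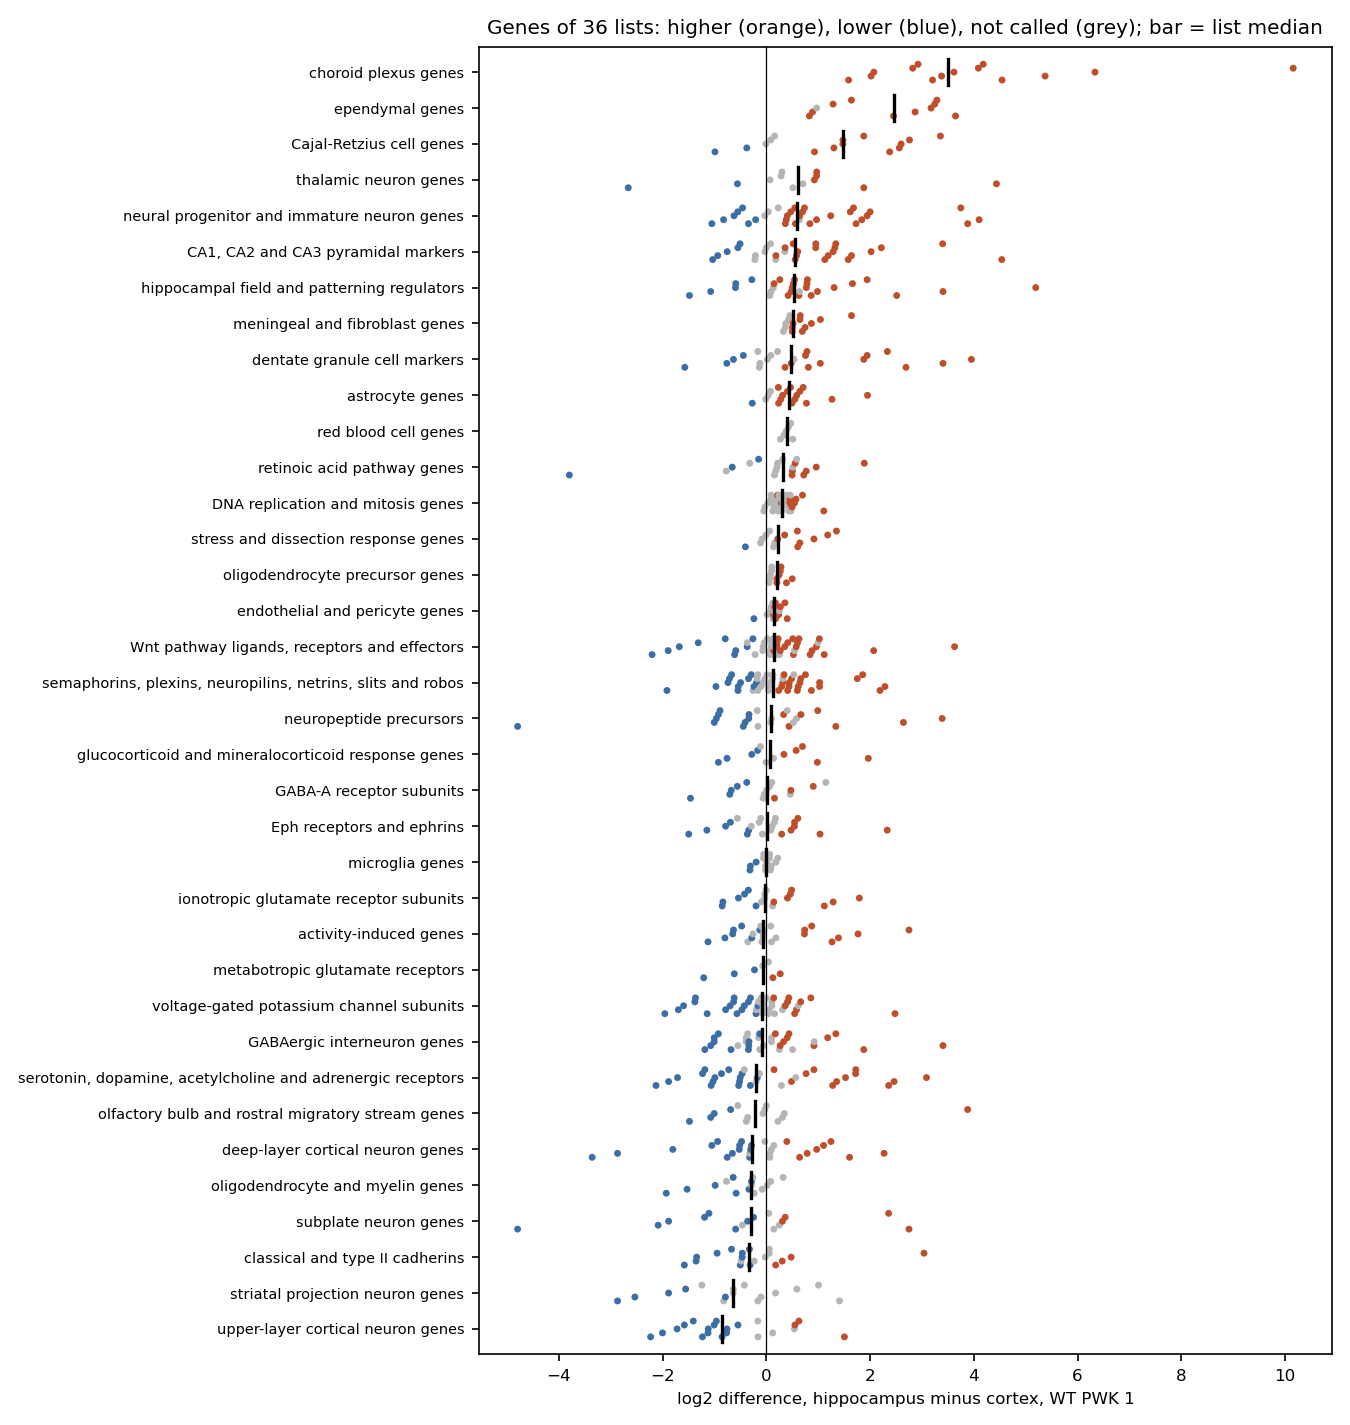
Log2 differences, hippocampus minus cortex, of the members of 36 gene lists, with a dot for each gene, orange if called higher, blue if called lower and grey if not called, and the bar is the list median. The choroid plexus list has the highest median, 3.50, and the upper-layer cortical list the lowest, -0.85.

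Among protein-coding genes without overlap between regions and with a mean of at least 100 normalized counts in the higher region, the 12 largest differences towards hippocampus included *Ttr*, with the highest log2 difference of 10.16, and 4 more members of the choroid plexus list, *Folr1*, *Otx2*, *Kcne2* and *Clic6*, at 6.34, 5.37, 4.54 and 4.18. Cortical replicate 1 was the highest of its region in *Otx2*, whose log2 difference was 6.40 without mouse 1 and 4.66 without mouse 3. *Mfrp*, *Cldn2* and *Car12*, at 6.45, 5.15 and 5.35, were not in that list. Their hippocampal libraries followed the same order as *Ttr*, with *Mfrp* at 227, 385, 252 and 93 and *Cldn2* at 151, 253, 245.5 and 110. *Car12* varied less, at 909, 1011, 966.5 and 846. The part of choroid plexus in these genes was not tested. Exons of *Mfrp* overlap *C1qtnf5* on the same strand, so its counts may be shared. The remaining 4 were *Dsc3*, *Chrm5*, *Fibcd1* and *Lhx9*, whose hippocampal libraries followed other orders than *Ttr*. *Dsc3*, a desmosomal cadherin, was at 19.9, 12.8, 4.45 and 13.6 normalized counts in cortex and 326, 225, 308 and 411 in hippocampus. *Chrm5*, the M5 muscarinic acetylcholine receptor, was at 12.8, 5.81, 5.84 and 9.7 in cortex and 212, 221, 222 and 201 in hippocampus. The regions were far apart in both genes, with log2 differences of 4.66 ± 0.30 (SE, n = 4 mice, adjusted p = 3.03e-05) and 4.56 ± 0.24 (SE, n = 4 mice, adjusted p = 1.19e-05).

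The 12 largest differences towards cortex were taken by the same limits. *Trh*, the precursor of thyrotropin-releasing hormone, was at 213, 129.8, 189 and 203 normalized counts in cortex and 8.99, 3.98, 3.52 and 7.1 in hippocampus, a log2 difference of -4.80 ± 0.22 (SE, n = 4 mice, adjusted p = 7.75e-06). *Rxfp2*, the receptor of the peptide INSL3, was at 98.9, 163, 222 and 256 in cortex and 11.7, 6.18, 15.6 and 17.4 in hippocampus, and lower (log2 difference -3.76 ± 0.25 SE, adjusted p = 3.24e-05). Every cortical library lay well above every hippocampal one in both genes. The log2 differences of the other 10 lay between -3.80 and -2.83. These were *Aldh1a3*, an enzyme that makes retinoic acid, *Hspb3*, a small heat shock protein, *Colq*, the collagen tail of acetylcholinesterase, *Syt6*, a synaptotagmin, *Trpa1*, an irritant-gated cation channel, *Plb1*, a phospholipase, *Tshr*, the thyrotropin receptor, *Foxp2*, a transcription factor of deep-layer neurons, and *Gm11549* and *Susd5*.

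Promoter sequences of a pair of genes from each direction are printed so that the region differences can be read beside the DNA upstream of the gene. *Fibcd1* and *Prox1* were among the clearest hippocampal genes, and *Trh* and *Rxfp2* among the largest differences towards cortex. Each is the 250 bases before the annotated start in RefSeq (GRCm38.p6), written 5′ to 3′ on the gene's strand, with capitals marking CANNTG. This E-box motif, read on both strands by its own symmetry, is the site class of basic helix-loop-helix factors such as *Neurod1* and *Neurog2*, both called higher in hippocampus.
Prox1, chr1:190170828-190171077, minus strand: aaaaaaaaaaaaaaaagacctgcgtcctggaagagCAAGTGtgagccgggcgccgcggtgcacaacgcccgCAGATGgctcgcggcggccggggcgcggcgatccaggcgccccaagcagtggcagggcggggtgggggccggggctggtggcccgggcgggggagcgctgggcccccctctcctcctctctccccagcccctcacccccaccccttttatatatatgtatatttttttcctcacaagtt
Fibcd1, chr2:31846006-31846255, minus strand: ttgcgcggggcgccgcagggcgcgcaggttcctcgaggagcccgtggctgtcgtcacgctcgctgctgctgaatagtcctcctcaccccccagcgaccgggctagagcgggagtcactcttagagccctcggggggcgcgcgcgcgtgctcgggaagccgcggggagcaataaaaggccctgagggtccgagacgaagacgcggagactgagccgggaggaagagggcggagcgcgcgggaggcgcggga
Trh, chr6:92244651-92244900, minus strand: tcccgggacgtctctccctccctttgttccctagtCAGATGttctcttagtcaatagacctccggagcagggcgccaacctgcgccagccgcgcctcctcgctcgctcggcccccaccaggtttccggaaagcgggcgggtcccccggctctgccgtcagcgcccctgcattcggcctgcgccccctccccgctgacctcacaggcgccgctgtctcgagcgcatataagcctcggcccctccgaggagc
Rxfp2, chr5:150018425-150018674, plus strand: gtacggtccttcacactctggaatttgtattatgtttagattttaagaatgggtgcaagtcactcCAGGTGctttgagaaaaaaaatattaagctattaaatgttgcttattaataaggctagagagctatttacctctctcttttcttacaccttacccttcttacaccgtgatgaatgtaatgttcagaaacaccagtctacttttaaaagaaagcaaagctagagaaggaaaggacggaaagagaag
The motif occurred 2 times before *Prox1*, 1 time before each of *Trh* and *Rxfp2*, and 0 times before *Fibcd1*. It occurred in 58.6% of the 12907 tested genes with an entry, counting the first entry of each gene. Of the 825 genes at least 2-fold higher in hippocampus, 562 had an entry, and 65.7% of these held the motif. Of the 457 at least 2-fold lower, 291 had an entry, and 59.5% of these held it. A match describes letters in the window and does not show a bound site.

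Regulators of hippocampal identity were mostly higher in hippocampus. Of the 28 patterning and field regulators, 19 were called higher, 5 lower and 4 not, with a median log2 difference of 0.53 against -0.0018 over all genes tested. Of all genes tested, 16.6% were called higher and 19.3% lower, and the counts of the lists below are read against these shares. Some genes belong to several lists, so the counts are not independent. *Calb2* is in the dentate, Cajal-Retzius, GABAergic and thalamic lists, *Prox1* also in the GABAergic list, and *Drd1* in the subplate and striatal lists. *Zbtb20*, a zinc-finger repressor required for the CA fields, was at 2642, 1785, 1754 and 1716 normalized counts in cortex and 9877, 12240, 11950 and 10410 in hippocampus. Its regions did not overlap, though cortical replicate 1 lay above the other cortical libraries, and the log2 difference was 2.51 ± 0.13 (SE, n = 4 mice, adjusted p = 1.29e-05) and 2.71 without mouse 1. *Prox1*, the homeobox factor of dentate granule neurons (chromosome 1, 190118035 to 190170714, minus strand), was at 423, 494, 475 and 477 in cortex and 4676, 5545, 5012 and 4628 in hippocampus. All hippocampal libraries lay far above the cortical ones, with a log2 difference of 3.40 ± 0.05 (SE, n = 4 mice, adjusted p = 5.98e-08). *Dmrt3*, a factor of the medial pallium, was at 0.823, 0, 0 and 0.865 in cortex and 47.1, 54, 43 and 51.3 in hippocampus. It was close to absent from the cortical libraries and present in each hippocampal one, with a log2 difference of 5.19 ± 0.34 (SE). *Neurod1*, which drives granule neuron differentiation, was at 401, 449.7, 479 and 357 in cortex and 1448, 1821, 1591 and 1613 in hippocampus, and higher (log2 difference 1.94 ± 0.08 SE, adjusted p = 3.91e-06). Its exons overlap those of *Cerkl* on the same strand.

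Smaller differences were found for other regulators with a role in the medial pallium. *Emx2*, a homeobox factor needed for the dentate gyrus, was at 220.2, 202, 214 and 201 in cortex and 454, 619.9, 511 and 503 in hippocampus, and higher (log2 difference 1.31, adjusted p = 5.85e-05). *Nr2f2* (COUP-TFII) was at 317, 327, 300.3 and 294 in cortex and 896, 1086, 967 and 976 in hippocampus, and higher (log2 difference 1.66, adjusted p = 3.83e-06), while its relative *Nr2f1* ranged over 1561 to 2098 in cortex and 1888 to 2151 in hippocampus (log2 difference 0.09, adjusted p = 0.331). *Lhx2*, the cortical selector gene, was at 1072, 1904, 1484 and 1622 in cortex and 2209, 2398, 2024 and 2611 in hippocampus. Cortical replicate 1 was lowest in *Lhx2*, the regions did not overlap, and the log2 difference was 0.63 (adjusted p = 0.00248). *Nfib*, a nuclear factor I member, was higher (log2 difference 0.86, adjusted p = 1.24e-05), and so was *Lef1*, a Wnt effector (log2 difference 0.52, adjusted p = 0.00881). In the other direction, *Meis2* was at 6210, 4231, 4707 and 4301 in cortex and 1574, 1510, 1804 and 2029 in hippocampus, and lower (log2 difference -1.48, adjusted p = 7.68e-05). *Emx1* was lower (log2 difference -0.60, adjusted p = 0.007) although the regions overlapped, with cortical replicate 1 at 317 normalized counts. *Sp8* was at 299.7, 65, 71.5 and 95.3 in cortex and 49.3, 54, 43.4 and 56.3 in hippocampus. Its log2 difference of -1.07 (adjusted p = 0.0427) was -0.57 (adjusted p = 0.043) without mouse 1 and was lost without mouse 3 (adjusted p = 0.0862), without mouse 4 (adjusted p = 0.0893) and without the mouse block (adjusted p = 0.0538). *Meis2* and *Sp8* also mark cells of the olfactory stream and ventral forebrain. Both are members of the olfactory list, which summed to 11340 to 15860 in cortex and 8942 to 9530 in hippocampus. That sum holds their own counts, so it is not a separate measure, and the part of such cells was not tested. The values of *Neurod6* (log2 difference 0.13, adjusted p = 0.0604) and *Fezf2* (log2 difference 0.07, adjusted p = 0.522) did not pass the test.

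**Figure D3:**
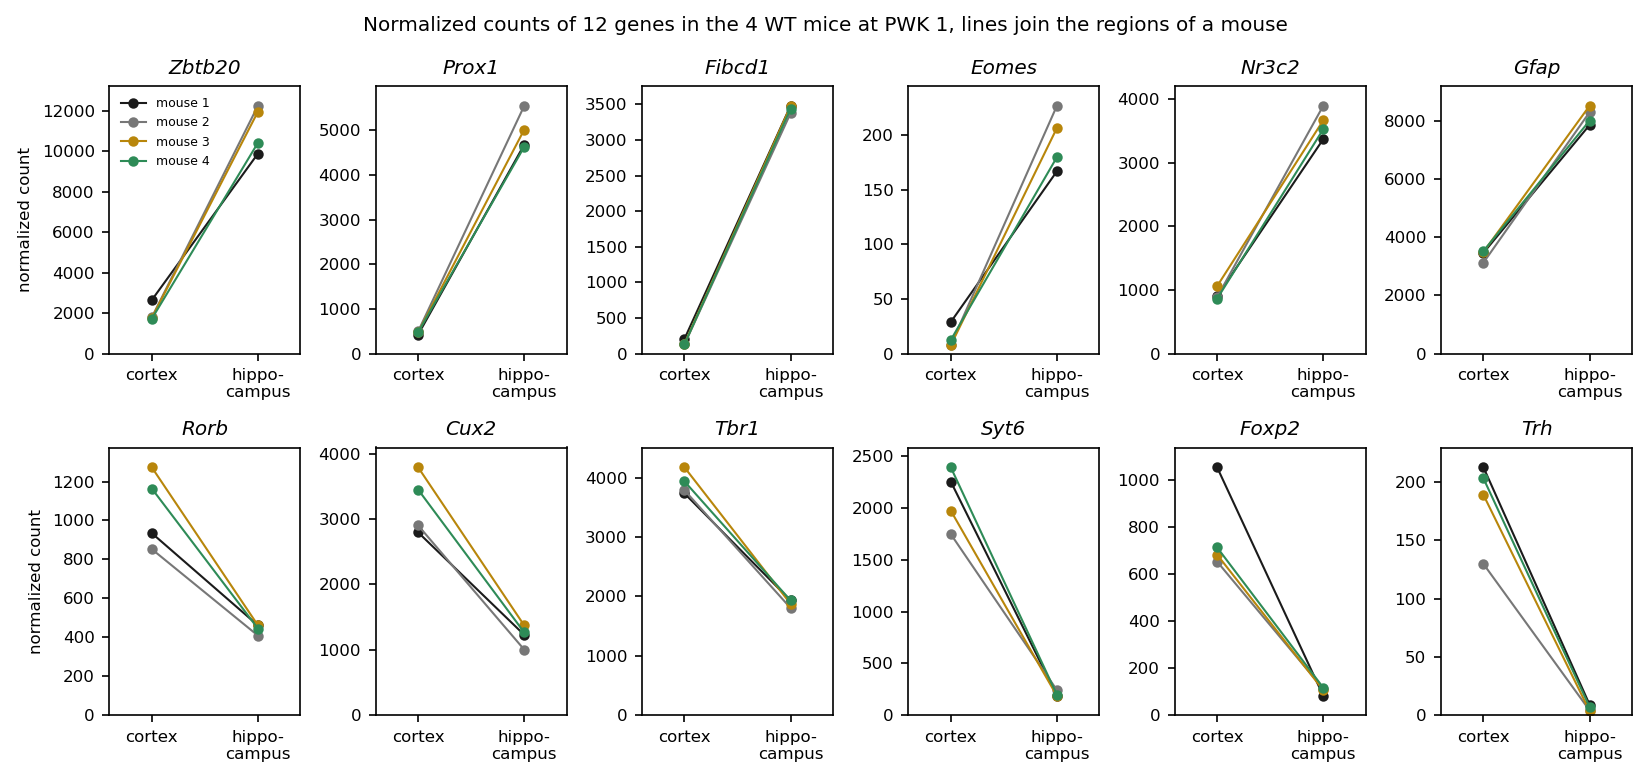
Normalized counts of 12 genes in cortex and hippocampus, 6 higher and 6 lower in hippocampus, with a line joining both regions of each of the 4 mice. In each panel the 4 lines run in the same direction, as for Prox1, from 423 to 494 in cortex to 4628 to 5545 in hippocampus.

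Markers of dentate granule neurons did not move as a block. Of 23, 12 were called higher, 4 lower and 7 not (median 0.48). *C1ql2*, a synaptic organizer of mossy fibres, was at 16.6, 11.2, 6.63 and 10.6 in cortex and 206, 168, 202 and 152 in hippocampus. *Dsp*, which encodes desmoplakin, was at 19.2, 55.9, 101 and 71.5 in cortex and 341, 361, 376 and 316 in hippocampus. Both were well separated, with log2 differences of 3.95 ± 0.23 (SE, n = 4 mice, adjusted p = 1.91e-05) and 2.69 ± 0.32 (SE, n = 4 mice, adjusted p = 0.000484). *Lct*, which encodes lactase, was higher (log2 difference 2.33, adjusted p = 2.03e-05), with 62 to 96 in cortex and 331 to 438 in hippocampus, and *Calb2* (calretinin), present in immature granule neurons, with a log2 difference of 1.88 (adjusted p = 9.74e-05). By contrast *Pdzd2* was at 6712, 9096, 7943 and 8493 in cortex and 3104, 2376, 2691 and 2645 in hippocampus, and lower (log2 difference -1.57 ± 0.11 SE, adjusted p = 4.19e-05). *Dgkh*, a diacylglycerol kinase, and *C1ql3* were lower too, with log2 differences of -0.76 (adjusted p = 6.29e-05) and -0.64 (adjusted p = 6.73e-05). *Tdo2*, tryptophan dioxygenase, ranged over 75.7 to 121 in cortex and 82.9 to 128 in hippocampus, which overlapped.

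Of 31 markers of the CA1, CA2 and CA3 pyramidal neurons, 19 were called higher, 5 lower and 7 not (median 0.55). The higher ones include *Dcn*, also in the meningeal list, and *Sostdc1*, also in the choroid plexus list. *Fibcd1*, which encodes a receptor for acetylated groups and marks CA1 (chromosome 2, 31813290 to 31846005, minus strand), was at 204, 128, 138 and 130 in cortex and 3479, 3376, 3475 and 3437 in hippocampus. The hippocampal libraries were tightly grouped and far above the cortical ones, with a log2 difference of 4.54 ± 0.11 (SE, n = 4 mice, adjusted p = 4.12e-07). *Grik4*, the kainate receptor subunit of CA3 neurons, was at 719.7, 709.7, 742 and 734 in cortex and 1710, 1785, 1831 and 1770 in hippocampus, and higher (log2 difference 1.29 ± 0.04 SE, adjusted p = 2.12e-06). *Homer3*, *Lefty1* and *Gpr161* were higher, with log2 differences of 1.58 (adjusted p = 2.25e-05), 3.40 (adjusted p = 0.000179) and 1.32 (adjusted p = 3.73e-05), and *Rgs14*, a regulator of plasticity in CA2, with a log2 difference of 1.19 (adjusted p = 0.000175). *Wfs1*, a marker of adult CA1, was at 1816, 1662, 1739 and 1506 in cortex and 2193, 1874, 2595 and 3098 in hippocampus, so the regions were close, and its log2 difference of 0.52 (adjusted p = 0.0145) was not called without mouse 3. *Mpped1*, a CA1 marker that also labels cortex, was at 12440, 16010, 15820 and 16320 in cortex and 7354, 6965, 7208 and 7869 in hippocampus, and lower (log2 difference -1.04, adjusted p = 3.06e-05). *Spock1* was lower (log2 difference -0.94, adjusted p = 3.2e-05).

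Genes of upper-layer cortical neurons were mostly lower in hippocampus. Of 21, 14 were called lower, 3 higher and 4 not, with the lowest list median, -0.85. *Cux2*, a homeobox factor of layers above the deep ones, was at 2794, 2900, 3789 and 3448 normalized counts in cortex and 1226, 1000, 1370 and 1263 in hippocampus, and lower (log2 difference -1.41 ± 0.06 SE, adjusted p = 5.8e-06). *Pou3f2* (Brn2) and *Ptprk*, a receptor phosphatase, were lower, with log2 differences of -2.003 (adjusted p = 5.8e-06) and -1.72 (adjusted p = 6.97e-06). *Rorb*, the nuclear receptor of granular layer neurons, was at 935, 852, 1273 and 1164 in cortex and 461, 408, 461 and 444 in hippocampus, and lower (log2 difference -1.23, adjusted p = 3.85e-05). Its neighbours in the list did not all follow, since *Scnn1a*, a sodium channel subunit, was at 48.1 to 85.6 in cortex and 190.2 to 206 in hippocampus and higher (log2 difference 1.50, adjusted p = 0.000292), and *Mdga1* was higher (log2 difference 0.55, adjusted p = 0.00149).

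Among 27 genes of deep-layer neurons, 13 were called lower, 8 higher and 6 not (median -0.29). Several of the lower members mark neurons that project to the thalamus. *Syt6* (chromosome 3, 103575231 to 103645569, plus strand) was at 2257, 1749, 1976 and 2395 in cortex and 188, 241, 185 and 197 in hippocampus, a log2 difference of -3.36 ± 0.12 (SE, n = 4 mice, adjusted p = 2.54e-06). *Foxp2* was at 1053, 652, 682 and 712 in cortex and 82.2, 112, 106 and 116 in hippocampus, and lower (log2 difference -2.87, adjusted p = 2.64e-05). *Foxp2* is also a striatal gene, cortical replicate 1 was its highest library, and without mouse 1 it was lower (log2 difference -2.61, adjusted p = 8.48e-07). *Rprm*, which encodes reprimo, and *Tbr1*, the T-box factor of early-born neurons, were lower, with log2 differences of -1.80 (adjusted p = 1.04e-06) and -1.05 (adjusted p = 5.21e-06). *Tbr1* was at 3740, 3793, 4180 and 3943 in cortex and 1933, 1806, 1876 and 1933 in hippocampus. The higher members included *Bcl11b* (Ctip2), which marks subcortical projection neurons and also hippocampal neurons, at 4859, 3068, 3036 and 3363 in cortex and 5049, 5757, 5368 and 5758 in hippocampus. Its log2 difference was 0.64 (adjusted p = 0.00553). *Crym*, a thyroid hormone binding protein, was at 3120, 2161, 2134 and 1999 in cortex and 10650, 11530, 10960 and 11560 in hippocampus, and higher (log2 difference 2.27 ± 0.11 SE, adjusted p = 9.65e-06), and *Tshz2* was higher (log2 difference 1.60, adjusted p = 0.00264).

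The subplate list split as well, with 8 of 16 called lower, 4 higher and 4 not (median -0.30). Besides *Trh*, the presynaptic complexin *Cplx3* was lower (log2 difference -2.09, adjusted p = 0.000212), with 402, 291, 595 and 609.5 in cortex and 68, 114, 93.1 and 174 in hippocampus, and the matricellular factor *Ccn2* (log2 difference -1.19, adjusted p = 3.3e-05). *Nr4a2* (Nurr1), a nuclear receptor found in subplate and also in entorhinal and claustral neurons, was at 646, 202, 290.4 and 213 in cortex and 1808, 1982, 1984 and 2355 in hippocampus. It was higher (log2 difference 2.75 ± 0.28 SE, adjusted p = 0.000225). *Chrna5*, a nicotinic receptor subunit, was higher (log2 difference 2.36, adjusted p = 4.09e-06), at 75 to 86.2 in cortex and 354 to 457 in hippocampus.

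Genes of Cajal-Retzius cells, early-born neurons that line the hippocampal fissure and the cortical surface, were higher in hippocampus in 10 of 15 cases, lower in 2 and not called in 3 (median 1.47). *Nhlh2*, a basic helix-loop-helix factor, was at 23.1, 27.1, 22 and 17.8 in cortex and 223, 272, 225 and 232 in hippocampus, and higher (log2 difference 3.35 ± 0.14 SE, adjusted p = 5.8e-06). *Trp73*, the p53 relative on which these cells depend, was at 41.9, 47.3, 29 and 25.3 in cortex and 189, 288, 202 and 196 in hippocampus, and higher (log2 difference 2.60 ± 0.16 SE, adjusted p = 2.41e-05). *Lhx5* and the chemokine receptor *Cxcr4* were higher, with log2 differences of 2.76 (adjusted p = 0.000634) and 1.48 (adjusted p = 2.25e-05), while *Ebf2* was lower (log2 difference -0.99, adjusted p = 0.00423). *Reln*, which these cells and interneurons secrete, was at 6257, 8599, 7721 and 7644 in cortex and 7796, 7924, 7521 and 8624 in hippocampus, so the regions overlapped (log2 difference 0.08, adjusted p = 0.388). *Trp73* is also expressed by ependymal and choroid plexus cells, whose summed levels were higher in each hippocampal library than in each cortical one.

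The GABAergic interneuron list was balanced, with 10 of 32 called higher, 10 lower and 12 not (median -0.09). *Gad1*, which makes GABA, was at 4394, 3143, 3213 and 3137 in cortex and 4538, 4420, 4491 and 4704 in hippocampus. Cortical replicate 1 was nearest to the hippocampal libraries, and the log2 difference was 0.40 (adjusted p = 0.00637) and 0.52 (adjusted p = 2.65e-05) without mouse 1. *Lhx6*, the factor of interneurons from the medial ganglionic eminence, did not pass the test (log2 difference -0.15, adjusted p = 0.0731). *Sst* (somatostatin) was at 2251, 1853, 2288 and 2060 in cortex and 2839, 2679, 2962 and 2928 in hippocampus, and higher (log2 difference 0.44, adjusted p = 0.000273), and its relative *Cort* was higher (log2 difference 1.34, adjusted p = 0.000201). *Vip*, a marker of another interneuron class, and *Lamp5*, whose counts need not come from interneurons alone, were lower. Their log2 differences were -1.005 (adjusted p = 0.000766) and -1.19 (adjusted p = 0.00081). *Vip* was at 379, 399, 521 and 471 in cortex and 264, 188, 256 and 179 in hippocampus. Without mouse 1 the counts of the list were 14 higher and 11 lower, and 6 were lower with scaling to equal totals.

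Neural progenitor and immature neuron genes were higher in hippocampus in 21 of 32 cases and lower in 7 (median 0.60). *Igfbpl1*, a marker of newborn neurons, was at 351, 32.3, 31.9 and 64 in cortex and 1063, 1399, 1201 and 1212 in hippocampus. Its log2 difference was 4.10 ± 0.55 (SE, n = 4 mice, adjusted p = 0.000836), and 4.94 (adjusted p = 1.69e-06) without mouse 1, whose cortical library was the highest of its region. *Eomes* (Tbr2), the factor of intermediate progenitors, was at 28.8, 7.89, 7.58 and 12.4 in cortex and 167, 227, 206 and 179.6 in hippocampus, and higher (log2 difference 3.88 ± 0.35 SE, adjusted p = 0.000128). *Neurog2*, which acts upstream in the same lineage, was near 0 in cortex, at 1.9 to 7.46, and at 47.8 to 66.7 in hippocampus. *Hopx*, a marker of radial glia and dentate stem cells, was at 335, 337, 349 and 351 in cortex and 1414, 1396, 1340 and 1352 in hippocampus, and higher (log2 difference 2.00 ± 0.05 SE, adjusted p = 7.94e-07). The lower members included genes of neurite growth, the neuronal tubulin *Tubb3* (log2 difference -0.62, adjusted p = 0.000109) and the microtubule regulator *Stmn2* (log2 difference -0.55, adjusted p = 0.000123). Other genes of immature neurons were lower by limma too. They were *Cd24a* (log2 difference -0.83, adjusted p = 3.2e-05), *Elavl4* (log2 difference -0.46, adjusted p = 0.00194) and *Dcx* (log2 difference -0.21, adjusted p = 0.00403). *Dcx* was not called without the mouse block (adjusted p = 0.162). The list summed to 151100 to 173200 in cortex and to less, 135800 to 148700, in hippocampus, with abundant genes such as *Stmn2* weighing most.

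Genes of DNA replication and mitosis, measured beside these, were less clear. Of 36, 9 were called higher and none lower (limma), with a median of 0.29. *Mki67*, the Ki-67 antigen, was at 1078, 667, 720.2 and 693 in cortex and 838, 1176, 952 and 899 in hippocampus. Cortical replicate 1 was above 2 of the hippocampal libraries, the log2 difference of 0.31 (adjusted p = 0.172) did not pass, and without mouse 1 it was 0.53 (adjusted p = 0.00224). The 9 were *Top2a*, *Mcm3*, *Mcm4*, *Mcm6*, *Mcm7*, *Gins2*, *Cdc6*, *Uhrf1* and *Cdc20*, mostly factors of DNA copying. *Gins2*, of the replicative helicase, was higher (log2 difference 1.11, adjusted p = 0.0103), though its exons overlap those of *Gse1* on the other strand. The count moved with the mice used, to 19 without mouse 1 and to 3 without each of mice 2, 3 and 4, where only *Mcm3*, *Mcm7* and *Gins2* kept their call.

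Of 48 Wnt pathway genes, 19 were called higher, 9 lower and 20 not (median 0.15). Ligands differed in both directions. *Wnt9a* was at 447, 447, 528 and 456 in cortex and 113, 93.8, 91 and 108 in hippocampus, and lower (log2 difference -2.20 ± 0.11 SE, adjusted p = 1.07e-05). *Wnt8b*, a ligand of the cortical hem and hippocampal primordium, was listed at 0 in all 4 cortical libraries and at 10.6, 16.2, 9.76 and 9.88 in hippocampus. *Wnt2* and *Wnt5a* were higher, with log2 differences of 2.07 (adjusted p = 0.000183) and 1.02 (adjusted p = 2.44e-05). Among receptors, *Fzd10* and the R-spondin receptor *Lgr6* were lower, with log2 differences of -1.89 (adjusted p = 0.000224) and -1.68 (adjusted p = 3.1e-05).

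In the retinoic acid pathway the widest gap was in a synthetic enzyme. Of 19, 7 were called higher, 3 lower and 9 not (median 0.31), with 11 higher (median 0.50) without mouse 1 and 4 higher (median 0.19) without mouse 2 or mouse 3. *Aldh1a3* was at 323, 625, 362 and 366 in cortex and 51.2, 25.2, 21.5 and 22.4 in hippocampus. Cortical replicate 2 was the highest library, no hippocampal library came near the cortical ones, and the log2 difference was -3.80 ± 0.28 (SE, n = 4 mice, adjusted p = 4.97e-05). *Cyp26b1*, which degrades retinoic acid, was lower (log2 difference -0.66, adjusted p = 0.00324). *Crabp1*, a binding protein, was at 97, 10.7, 5.64 and 11.4 in cortex and 47, 91.9, 51.1 and 75.1 in hippocampus. Its log2 difference of 1.89 (adjusted p = 0.0497) was 2.86 (adjusted p = 6.47e-05) without mouse 1 and was not called without mouse 2, 3 or 4 (adjusted p = 0.194, 0.188 and 0.17).

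Steroid receptors differed by type. *Nr3c2*, the mineralocorticoid receptor, was at 901, 886, 1059 and 862 in cortex and 3369, 3894, 3665 and 3525 in hippocampus. The hippocampal libraries all lay well above the cortical ones, with a log2 difference of 1.96 ± 0.06 (SE, n = 4 mice, adjusted p = 1.18e-06). *Nr3c1*, the glucocorticoid receptor, was at 2120, 1966, 2219 and 2271 in cortex and 2150, 1986, 1939 and 1847 in hippocampus, which overlapped, and did not pass the test (log2 difference -0.11, adjusted p = 0.187). *Fkbp5*, a target of both receptors, was higher (log2 difference 0.34, adjusted p = 0.00296). *Crhr1*, the receptor of corticotropin-releasing hormone, was lower (log2 difference -0.76, adjusted p = 0.00437). In the list of 12, 5 genes were called higher and 4 lower.

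Glutamate and GABA receptor subunits differed member by member, with list medians near 0. Of 18 ionotropic glutamate receptor subunits, 7 were called higher and 6 lower, and of 15 GABA-A receptor subunits, 3 higher (5 with scaling to equal totals) and 5 lower. *Gria1*, the AMPA receptor subunit GluA1, was at 11000, 9507, 10100 and 9708 in cortex and 20450, 22530, 22140 and 22250 in hippocampus, and higher (log2 difference 1.12 ± 0.06 SE, adjusted p = 1.19e-05). *Grin2c*, an NMDA receptor subunit, was at 221, 86.4, 163 and 95.6 in cortex and 448, 426, 528 and 435 in hippocampus, and higher (log2 difference 1.79, adjusted p = 0.000307). *Grik3*, a kainate receptor subunit, was lower (log2 difference -0.84, adjusted p = 7.74e-06). Among the 7 metabotropic receptors 2 were called higher, though none without mouse 2, 3 or 4 by limma, and 3 lower, and *Grm8* was lower (log2 difference -1.21, adjusted p = 0.00024). *Gabra2*, of synaptic GABA-A receptors, was at 4210, 4474, 4197 and 3980 in cortex and 7904, 7787, 8022 and 7807 in hippocampus. It was higher (log2 difference 0.90 ± 0.04 SE, adjusted p = 6.15e-06). *Gabra5*, the subunit of extrasynaptic receptors of hippocampal pyramidal neurons, was higher (log2 difference 0.47, adjusted p = 0.000145), whereas *Gabra3* and *Gabrd*, the delta subunit, were lower, with log2 differences of -0.68 (adjusted p = 7.17e-05) and -1.46 (adjusted p = 1.07e-05).

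Of 33 receptors for serotonin, dopamine, acetylcholine and noradrenaline, 12 were called higher, 16 lower and 5 not (median -0.20). *Htr1a*, the 5-HT1A receptor, was at 403, 172, 266 and 230.1 in cortex and 631, 586, 618 and 648 in hippocampus. The regions did not overlap, and it was higher (log2 difference 1.28 ± 0.16 SE, adjusted p = 0.000611). *Htr2a*, the 5-HT2A receptor, was at 936, 796, 1191 and 919 in cortex and 308, 275, 264 and 313 in hippocampus, and lower (log2 difference -1.71 ± 0.11 SE, adjusted p = 2.88e-05). *Htr5b* and *Htr4* were higher, with log2 differences of 3.09 (adjusted p = 0.000115) and 2.46 (adjusted p = 2.88e-05), while *Adra1b*, an alpha-1 adrenergic receptor, was lower (log2 difference -2.13, adjusted p = 9.65e-06). Among 23 neuropeptide precursors 7 were called higher and 9 lower. *Nts* (neurotensin) was at 211, 189, 45.8 and 78.1 in cortex and 1060, 1100, 1283 and 1196 in hippocampus, and higher (log2 difference 3.39 ± 0.37 SE, adjusted p = 0.000303). *Gal* (galanin) was higher (log2 difference 2.64, adjusted p = 0.00141), and *Adcyap1*, the precursor of PACAP, lower (log2 difference -0.89, adjusted p = 0.000456).

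Genes of axon guidance and adhesion differed in both directions. Of 47 semaphorins, plexins, neuropilins, netrins, slits and robos, 20 were called higher, 12 lower and 15 not, with 7 lower without mouse 4. *Nrp1*, a semaphorin and VEGF co-receptor, was at 842, 881, 844 and 815 in cortex and 3742, 4027, 3889 and 3783 in hippocampus, and higher (log2 difference 2.19 ± 0.04 SE, adjusted p = 1.47e-07). Its relative *Nrp2* was at 2174, 1264, 909 and 987 in cortex and 5470, 6855, 5639 and 6594 in hippocampus, and higher (log2 difference 2.28 ± 0.20 SE, adjusted p = 0.000122). Secreted guidance cues differed in direction. *Sema3a* was at 976, 882, 1063 and 1046 in cortex and 240.3, 279, 233 and 298 in hippocampus, and lower (log2 difference -1.92 ± 0.09 SE, adjusted p = 9.39e-06), while *Sema3e* and *Slit3* were higher, with log2 differences of 1.86 (adjusted p = 1.18e-06) and 1.75 (adjusted p = 7.75e-06). Of 22 Eph receptors and ephrins, 7 were called higher and 6 lower. *Epha6* was higher (log2 difference 2.33, adjusted p = 1.5e-05), at 208 to 303 in cortex and 943 to 1480 in hippocampus, and *Ephb6* lower (log2 difference -1.50, adjusted p = 3.43e-05). Cadherins were lower in 10 of 19 cases and higher in 4, or in 2 without mouse 4 (median -0.33), led by *Cdh13*, or T-cadherin, at 10740, 9339, 9886 and 9548 in cortex and 3420, 3004, 3228 and 3551 in hippocampus. *Cdh13* was lower (log2 difference -1.58 ± 0.05 SE, adjusted p = 1.01e-06), and *Cdh6* (log2 difference -1.36, adjusted p = 5.13e-05).

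Of 41 voltage-gated potassium channel subunits, 17 were called lower, 9 higher and 15 not. *Kcnv1*, a modifying subunit that forms no channel alone, was at 2698, 2704, 3102 and 2760 in cortex and 766, 714, 729.6 and 684 in hippocampus, and lower (log2 difference -1.96 ± 0.05 SE, adjusted p = 7.94e-07). *Kcnh5* was lower (log2 difference -1.70, adjusted p = 0.000248), and *Kcng2*, another modifying subunit, was higher (log2 difference 2.48, adjusted p = 3.76e-05). Activity-induced genes were divided, with 7 of 24 called higher and 7 lower. *Nr4a3*, a nuclear receptor of the immediate-early group, was at 1345, 1848, 1246 and 1449 in cortex and 4917, 5156, 4742 and 5019 in hippocampus, and higher (log2 difference 1.77 ± 0.07 SE, adjusted p = 4.44e-06). *Bdnf*, the neurotrophin, was at 370.5, 364, 404 and 324 in cortex and 843, 898, 926 and 850.4 in hippocampus, and higher (log2 difference 1.27 ± 0.06 SE, adjusted p = 9.65e-06). The immediate-early factors *Egr1* and *Npas4* were lower, with log2 differences of -0.65 (adjusted p = 0.000375) and -0.63 (adjusted p = 0.00158), and *Inhba*, an activin subunit, with a log2 difference of -1.13 (adjusted p = 5.03e-05). The stress and dissection list had 8 of 15 called higher and 1 lower, or 2 lower without mouse 1 (median 0.22, and 0.34 without mouse 2), with the metallothioneins *Mt1* (log2 difference 1.18, adjusted p = 7.42e-05) and *Mt2* (log2 difference 1.35, adjusted p = 2.87e-05) higher and the heat shock gene *Hsph1* lower (log2 difference -0.40, adjusted p = 0.000855). The part of handling in these values was not tested.

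Astrocyte genes were higher in hippocampus in 14 of 18 cases and lower in 1, *Aldh1l1* (log2 difference -0.27, adjusted p = 0.00781), with a median of 0.44. *Gfap*, the filament of astrocytes and of neural stem cells, was at 3470, 3132, 3498 and 3531 in cortex and 7872, 8312, 8534 and 8021 in hippocampus. Every hippocampal library held far more, and the log2 difference was 1.26 ± 0.05 (SE, n = 4 mice, adjusted p = 2.86e-06). *Slc1a3*, the glutamate transporter GLAST, was at 16940, 15000, 14310 and 14390 in cortex and 23730, 23970, 23880 and 23130 in hippocampus, and higher (log2 difference 0.65 ± 0.05 SE, adjusted p = 4.47e-05). *Agt* (angiotensinogen) was higher (log2 difference 1.95, adjusted p = 2.4e-05). Oligodendrocyte precursor genes were higher in 7 of 12 cases, or in 4 without mouse 2 or mouse 3, and lower in none, by small amounts (median 0.20), such as *Pdgfra* (log2 difference 0.27, adjusted p = 0.00163) and *Cspg4* (NG2), with a log2 difference of 0.39 (adjusted p = 0.000692).

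Genes of myelin went the other way, with 7 of 15 called lower and none higher (median -0.29), but they varied widely among mice, and without the mouse block 1 was called lower. *Mbp* (myelin basic protein) was at 8165, 3369, 6030 and 4892 in cortex and 4802, 2627, 4917 and 2217 in hippocampus. The regions overlapped while the hippocampal library was lower in each mouse, and the log2 difference of -0.64 (adjusted p = 0.00554) was not called without the mouse block (adjusted p = 0.118). *Mobp* was at 841, 263, 719 and 411 in cortex and 281, 70.9, 311 and 48.5 in hippocampus, and lower (log2 difference -1.93, adjusted p = 0.000875). The summed myelin genes ran from 8393 to 19070 in cortex and from 6211 to 12330 in hippocampus, with cortical replicate 1, the library high in striatal genes, the highest. Of 14 microglia genes 3 were called lower and none higher, but none was called lower without mouse 4 or with scaling to equal totals, and 1 without mouse 3, while 1 was called higher without mouse 1 or with equal totals. *Tmem119* was lower (log2 difference -0.32, adjusted p = 0.0225), a call lost without mouse 3, without mouse 4 and with scaling to equal totals, and *Cx3cr1* did not pass (log2 difference -0.02, adjusted p = 0.767). Endothelial and pericyte genes were higher in 8 of 16 cases and lower in 1, but higher in 3 without mouse 2 or mouse 3, in 4 without mouse 4, in 5 without the mouse block and in 13 with equal totals. They were lower in none without mouse 3, without mouse 4 or with equal totals. *Pdgfrb*, of pericytes, was higher (log2 difference 0.40, adjusted p = 0.000829).

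Other cell types and tissues were looked at through their markers. Of the meningeal genes, *Dcn* (decorin) was at 595, 572, 422 and 662 in cortex and 1767, 1701, 1673 and 1803 in hippocampus, and higher (log2 difference 1.64 ± 0.09 SE, adjusted p = 1.22e-05), and *Col3a1* was higher (log2 difference 1.04, adjusted p = 0.00218). Thalamic genes summed to 5659 to 6227 in cortex and 9043 to 9652 in hippocampus, and 5 of 12 were called higher, or 8 without mouse 1, and 2 lower, or 1 without mouse 2 or mouse 3. *Lhx9*, a LIM-homeobox factor, was at 25.1, 18, 39 and 20.3 in cortex and 485, 625, 566 and 535 in hippocampus, and higher (log2 difference 4.44 ± 0.20 SE, adjusted p = 6.55e-06). *Ramp3*, a receptor activity modifier, was at 654, 886, 824 and 867 in cortex and 159.7, 87, 133 and 136 in hippocampus, and lower (log2 difference -2.66 ± 0.18 SE, adjusted p = 3.31e-05). *Slc17a6*, the vesicular transporter VGLUT2, was higher (log2 difference 0.97, adjusted p = 0.000168). None of the 6 red blood cell genes was called by limma in either direction, while 3 were called higher without mouse 4 and 2 with scaling to equal totals, and hippocampal replicate 3 held more of their transcripts than the other libraries, at a sum of 27060 against 7725 to 13150 in the other hippocampal ones. *Hbb-bs*, an adult beta globin with near-identical copies, was at 4771, 4437, 5386 and 3673 in cortex and 5762, 5495, 11590 and 3255 in hippocampus (log2 difference 0.38, adjusted p = 0.119).

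*Cyfip2* itself (chromosome 11, 46193850 to 46312859, minus strand), which encodes a subunit of the WAVE actin regulatory complex and carries the knock-in elsewhere in the study, was at 16450, 18390, 19300 and 18300 in the WT cortex and 15160, 14910, 15230 and 15530 in the WT hippocampus. It was lower in hippocampus in each mouse, with a log2 difference of -0.25 ± 0.04 (SE, n = 4 mice, adjusted p = 0.0032).

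The KI littermates at PWK 1 gave the same comparison in 4 other mice. The test called 7567 of 18365 genes (41.2%), with 3575 higher in hippocampus and 3992 lower. Of the 6591 WT calls, 5536 (84%) were also called in KI mice, which is 73.2% of the KI calls, and 5536 of these 5536 had the same direction. Of the 1282 genes at least 2-fold different in WT mice, 1267 had the same direction in KI mice and 1119 were called there. The log2 differences in WT and KI mice were 3.40 and 3.56 for *Prox1*, 4.54 and 4.53 for *Fibcd1*, and -3.36 and -3.14 for *Syt6*. *Mobp* was at -1.93 in WT and -0.67 in KI mice and *Mbp* at -0.64 and -0.13, with an adjusted p of 0.968 for the genotype term of each, and *Ttr* was at 10.16 and 8.12, all as log2 differences. The term for a region difference that depends on genotype was called by limma in 0 of 18379 genes, with a smallest adjusted p of 0.403 and 881 genes (4.79%) had an unadjusted p below 0.05. Smallest in p for this term were *Gm7367*, *Lenep* and *Dnah14*. *Gm7367*, a processed pseudogene with multiple copies, was listed at 0 in all 4 cortical WT libraries and at 13.2, 48.4, 42.9 and 55.4 in hippocampus, *Lenep* at 20.4, 0, 0 and 23.7 in cortex and 0 in all 4 hippocampal libraries, and *Dnah14*, an axonemal dynein, had log2 differences of -1.35 in WT and -3.25 in KI mice. The log2 differences of *Gm7367* and *Lenep* were 5.18 and -2.26 in WT mice and 0.65 and 4.26 in KI mice. Exons of *Lenep* overlap those of *Flad1* on the same strand, and exons of *Dnah14* those of *Lbr* on the other.

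**Figure D4:**
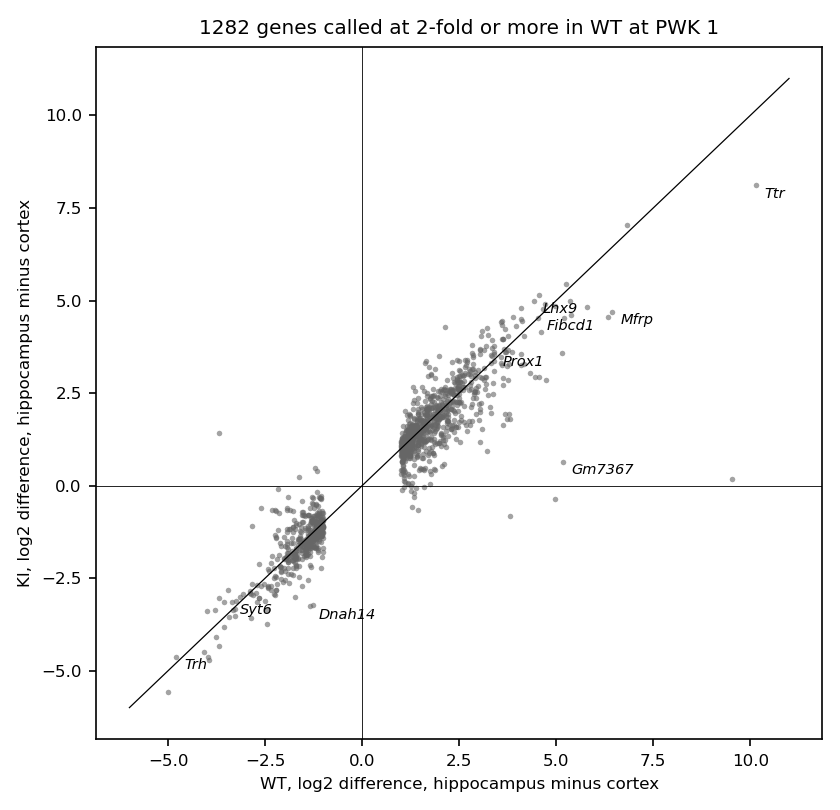
Log2 differences, hippocampus minus cortex, of the 1282 genes at least 2-fold different in WT mice at PWK 1, in WT mice (horizontal) against KI mice (vertical), with the line of equality. Most points lie near the line, and 1267 of the 1282 have the same sign in KI mice.

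The region difference of the PWK 1 WT mice was then compared with that of WT mice at PWK 7, the nearest later age, by a region-by-age term over 16 libraries. This term was called in 3876 of 18428 genes (21%). Of these, 955 were called at PWK 1 and not at PWK 7, 1392 at PWK 7 and not at PWK 1, 366 at both ages in opposite directions, 741 at both with a larger and 229 at both with a smaller difference at PWK 7, and 176 at neither. Of the 6591 genes called at PWK 1, 2294 had a called age term. In all, 4014 genes were called at both ages and 3648 of these had the same direction. Without mouse 2 of each group 2532 genes had a called age term, and without mouse 4, 2364.

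Genes that reversed included *Igfn1*, an immunoglobulin-fibronectin protein, whose mean was 2.41 ± 3.22 normalized counts in cortex and 19.6 ± 5.53 in hippocampus at PWK 1 (SD, n = 4), and 1014 ± 134 and 100.4 ± 50.9 at PWK 7. The cortex thus held less than the hippocampus at PWK 1 and more at PWK 7, and the log2 difference went from 3.10 to -3.56, an age term of -6.66 ± 0.75 (SE, adjusted p = 0.000113). *Trpa1* went the other way, from 314 ± 103 in cortex and 29.6 ± 6.97 in hippocampus to 6.26 ± 3.08 and 21.1 ± 2.37, with an age term of 5.0 ± 0.45 (SE, adjusted p = 2.69e-05). *Mc4r*, the melanocortin-4 receptor, went from 229.5 ± 16.1 and 70 ± 2.21 to 50.6 ± 4.42 and 164 ± 27.9, with an age term of 3.36 ± 0.16 (SE, adjusted p = 5.34e-07). In both *Trpa1* and *Mc4r* the cortex was the higher region at PWK 1 and the hippocampus at PWK 7. *Tspan11*, a tetraspanin, was higher in hippocampus at PWK 1 and lower at PWK 7, with log2 differences of 1.09 and -2.21.

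Some genes, hippocampal markers among them, gained or widened their difference after PWK 1. *Tdo2*, of mature granule neurons, had means of 106 ± 20.5 in cortex and 97.3 ± 21.4 in hippocampus at PWK 1 and of 16.3 ± 11.2 and 232 ± 55.4 at PWK 7 (SD, n = 4), with an age term of 4.09 ± 0.45 (SE, adjusted p = 9.9e-05). The regions overlapped at PWK 1 and were far apart at PWK 7. *Stac* had an age term of 3.72 ± 0.41 (SE, adjusted p = 0.000102), *Dsp* one of 5.47 ± 0.48 (SE, adjusted p = 2.41e-05), and *C1ql2* one of 2.16 ± 0.32 (SE, adjusted p = 0.000722). *Neurod6*, a factor of pyramidal neurons, went from 6953 ± 806 to 2181 ± 183 in cortex and was at 7590 ± 305 and 6608 ± 342 in hippocampus, so that its region log2 difference was 0.13 at PWK 1 and 1.60 at PWK 7. *Krt80*, a keratin, became a cortical gene, with a log2 difference of -0.32 at PWK 1 and -4.35 at PWK 7.

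Other genes were called at PWK 1 and no longer at PWK 7. *Fst* (follistatin) had means of 11.8 ± 6.71 in cortex and 110.5 ± 21.5 in hippocampus at PWK 1 and of 102 ± 31.4 and 86.7 ± 7.11 at PWK 7, with an age term of -3.40 ± 0.43 (SE, adjusted p = 0.000243). *Gpr139*, an orphan receptor, was at 35 ± 22.7 and 401 ± 30.7 at PWK 1 and at 18.4 ± 8.15 and 34.9 ± 14.7 at PWK 7, with an age term of -2.77 ± 0.57 (SE, adjusted p = 0.00555). *Plb1* and *Rgs9bp*, cortical at PWK 1, had age terms of 3.17 and 2.86 (SE 0.32 and 0.39, adjusted p = 5.72e-05 and 0.000389). Among progenitor genes, the log2 differences of *Eomes* and *Neurog2* were 3.88 and 3.75 at PWK 1 and 1.81 and 0.09 at PWK 7. The difference of *Eomes* was smaller at PWK 7 but still called there by limma (adjusted p = 0.00439). The log2 differences of *Fibcd1* and *Zbtb20* were 4.54 and 2.51 at PWK 1 and 4.31 and 2.44 at PWK 7, and their age terms were not called (adjusted p = 0.484 and 0.786). That of *Prox1* went from 3.40 to 2.98, with a called age term of -0.42 ± 0.09 (SE, adjusted p = 0.00509). The dentate and CA lists had medians of 0.48 and 0.55 at PWK 1 and of 1.06 and 1.14 at PWK 7, with the age term called in 17 of 23 and 16 of 31 of their genes, against 21% of all genes tested. The astrocyte list went from 0.44 to 0.07, with the age term called in 12 of 18. Within it *Gfap* went the other way, from 1.26 to 1.53, with a called age term of 0.27 (limma, adjusted p = 0.0471). The upper-layer list was at -0.85 and -0.87, with the age term called in 9 of 21.

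**Figure D5:**
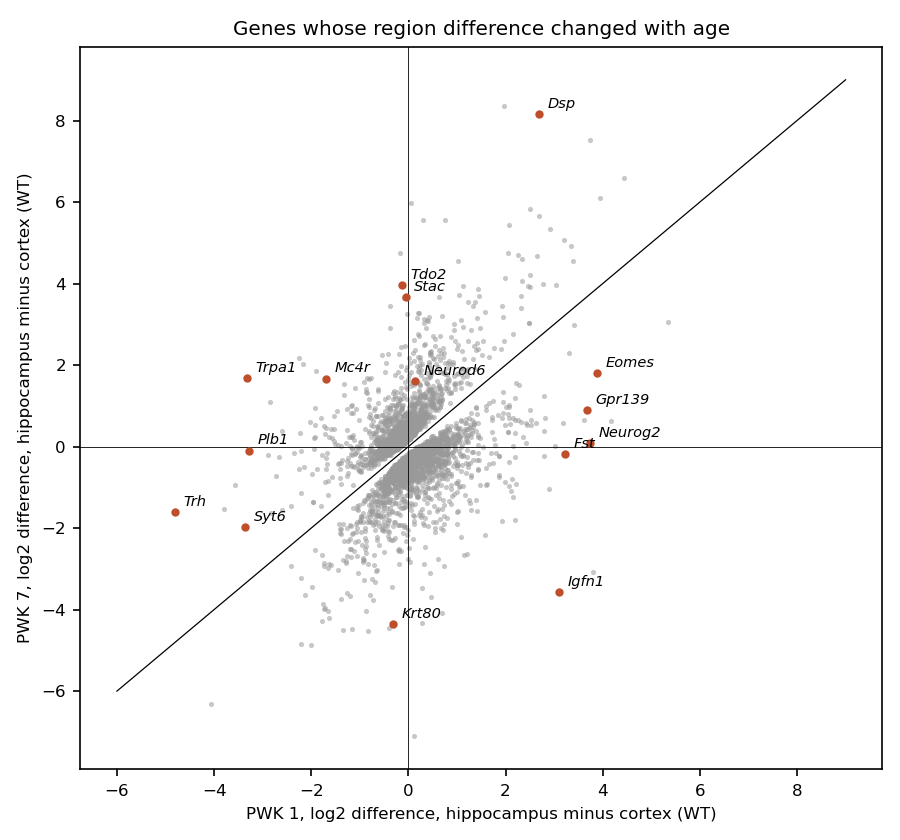
Log2 differences, hippocampus minus cortex, at PWK 1 (horizontal) against PWK 7 (vertical) in WT mice, for the 3859 genes tested at PWK 1 whose region-by-age term was called. Genes on opposite sides of 0 at the 2 ages, such as Igfn1 (3.10 and -3.56) and Trpa1 (-3.32 and 1.68), lie in the upper left and lower right quadrants.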

How the data were processed

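RNA from frontal cortex and hippocampus was sequenced from stranded libraries, made with an mRNA kit per the labels and a total RNA kit per the methods of the study. The authors deposited 1 table of normalized signal, an estimated count per gene from Salmon on GRCm38, scaled with DESeq2 over all 64 libraries (Salmon 0.11.2, DESeq2 1.19.11 and R 3.6.0 per the submitters' processing notes). The lowest mean of a gene over the libraries was 4.25, so genes expressed more weakly are not in the table. The authors' scaling treats most genes as equal between libraries. Low values did not resolve into whole reads, so no count model was run, the depth is an estimate, and precision rests on the spread between the 4 mice. Names, biotypes and positions came from GENCODE M21 (GRCm38) and matched 18420 of the 18432 IDs.

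The value plus 1 was taken to log2 and tested with limma-trend (limma 3.58.1, R 4.3.3) with mouse and region as terms, in genes with a mean of at least 1. A p adjusted by Benjamini-Hochberg over all genes tested and under 0.05 made a call. Interactions with genotype or age used 16 libraries with the mouse as a block. Differences on this scale understate those of weakly expressed genes. Both regions were dissected from each mouse per the series design, and libraries with one replicate number were taken as one mouse, which the labels do not state. In WT mice at PWK 1 these deviated together from their region means, with correlations of 0.1012, 0.2334, 0.2911 and 0.2515 over 12672 genes, but cortical replicate 1 and hippocampal replicate 2 correlated at 0.1282. In KI mice the correlations were 0.3334, 0.2705, 0.078 and 0.117, and cortical replicate 4 and hippocampal replicate 3 correlated at 0.1621.

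Genes named are up to 12 protein-coding genes per direction with the largest difference, no overlap and a mean of at least 100 normalized counts in the higher region, members of the lists, up to 5 genes per kind of age change, the 3 genes with the smallest p for the genotype term and a fixed list. Some of these are not reported here. Members, lists and rule were chosen with earlier results of these data known. Lists are described by counts and medians. The limma script was tested on simulated data. RefSeq promoters were found for 15 of 25 genes looked up. Alternatives are given in the closing section.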

Additional observations from a re-analysis of the deposited data

Results flagged for a closer look

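Among the genes named, some had 1 library far from the other 3 of its region, by a gap past the 95% critical value of Dixon's test for 4 values. Over 374 groups of 4 libraries, not counting *Cd24a*, *Elavl4* and *Dcx*, 41 had such a library, or 11%, and 25 of the 41 were cortical replicate 1. About 5% would be the share by chance in genes named without regard to their values. The genes named here were chosen with earlier results known, and several are striatal genes, so the 11% does not describe all genes. Over the 12937 genes with a mean of at least 100 normalized counts, the other libraries each stood apart in 0.796 to 1.95%. Cortical replicate 1 did so in 3.46%. In normalized counts, that library was highest in the striatal genes, with *Ppp1r1b* at 3758, *Drd1* at 841, *Drd2* at 461, *Adora2a* at 793, *Penk* at 1418, *Six3* at 205, *Isl1* at 113 and *Foxp2* at 1053, where the other 3 cortical libraries spanned 124.9 to 150.5 for *Penk* and 60.9 to 78.1 for *Drd2*. It was also highest in 2 choroid plexus genes, with *Otx2* at 26.4 and *Clic6* at 54.8, and in *Fibcd1* at 204, *Zbtb20* at 2642, *Sp8* at 299.7, *Crym* at 3120, *Gad1* at 4394, *Igfbpl1* at 351, *Mki67* at 1078, *Crabp1* at 97, *Fst* at 21.8, *Top2a* at 859 and *Mcm3* at 214. It was lowest in *Mpped1* at 12440, *Stmn2* at 47580, *Gabra5* at 4227 and *Hsph1* at 7966. Beside these values stands its summed level of 21640 in striatal genes, against 6136 to 6719 in the other cortical libraries, and their part in each was not tested.

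The remaining libraries that stood far from their group were fewer. Cortical replicate 2 was highest in *Aldh1a3* at 625 and *Tshz2* at 2383 and lowest in *Gfap* at 3132. Cortical replicate 3 was highest in *Wnt9a* at 528, *Kcnv1* at 3102 and *Inhba* at 508. In hippocampus, replicate 1 was highest in *Aldh1a3* at 51.2, replicate 2 was highest in *Trp73* at 288, *Wnt8b* at 16.2 and *Gm14440* at 234 and lowest in *Grik3* at 3064 and *Slc17a6* at 1859, and replicate 4 was highest in *Tubb3* at 30780 and *Stmn2* at 38930 and lowest in *Ppp1r1b* at 278 and *Slit3* at 2227. *Gm14440* was listed at 0 in the other 7 libraries. Hippocampal replicate 2 also had the most estimated reads of its region, 36.63 M against 33.26 to 33.8 M.

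The region difference changed between PWK 1 and PWK 7 in WT mice, by the region-by-age term of limma, in 3876 genes. The log2 change, PWK 7 minus PWK 1, was towards hippocampus for *Gm14440* at 6.38, *Rps12-ps3* at 5.93, *Tdo2* at 4.09, *Stac* at 3.72, *Plb1* at 3.17, *Hist2h2aa1* at 2.99, *Rgs9bp* at 2.86, *Trpa1* at 5.0, *Mc4r* at 3.36, *Neurod6* at 1.47, *Dsp* at 5.47, *C1ql2* at 2.16, *Gpr161* at 2.13, *Syt6* at 1.39, *Trh* at 3.19 and *Mobp* at 2.17. It was towards cortex for *Krt80* at -4.04, *Fst* at -3.40, *Gpr139* at -2.77, *Igfn1* at -6.66, *Tspan11* at -3.30, *Neurog2* at -3.65, *Eomes* at -2.07, *Sst* at -0.58, *Slc1a3* at -0.69 and *Prox1* at -0.42. *Gm14440*, *Rps12-ps3* and *Hist2h2aa1* have near-identical copies in the genome, so reads may be split between copies. Exons of *Hist2h2aa1* and *Mobp* overlap another transcript on the same strand. The age groups are different mice, and the sums of choroid plexus genes in the WT hippocampus spanned 11900 to 41950 at PWK 1 and 1864 to 106600 at PWK 7.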

How the results depend on the processing

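The count of 6591 genes in WT mice at PWK 1 was 6378 without the mouse block, 6620 with a pseudocount of 8, 6575 with 0.5, 6511 with no filter, 5999 with a mean of at least 50, 6959 with scaling to equal totals, 7423 with sample weights and 4458 to 7171 without each mouse in turn. Of the 1282 genes at least 2-fold different, 1000 stayed called without each mouse in turn, and none changed sign under an alternative that was run. With a mean of at least 50 their count was 649 among 13868 genes tested, and all 649 were among the 1282. The other genes of the 1282 had a lower mean or were not called there. The count was 907 with a pseudocount of 8 and 1068 to 1473 without each mouse. The KI count of 7567 was 7142 without the block and 5794 to 6957 without each mouse. The genotype term, with 0 calls by limma and 881 genes at an unadjusted p under 0.05, had 0 calls under the alternatives except 1 call without mouse 4, so 0 to 1 without each mouse, with 745 to 965 genes at that p. The age term, called in 3876 genes, was called in 3923 without the block and in 2364 to 3214 without each mouse, the lowest without mouse 4 and 2532 without mouse 2.

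Scaling to equal totals raised the share of higher genes from 46.1% to 66.6% of the WT calls, from 47.2% to 66.7% of the KI calls, from 64.4% to 72% of the 2-fold calls, and lowered the positive share of age terms from 53.6% to 41.4%. Of 1494 values of 187 genes named with a value or a call, not counting *Cd24a*, *Elavl4* and *Dcx*, 1444 kept direction and call. The call was lost in 33 and gained in 8, and 9 turned sign, each in a gene that was not called. Without each mouse in turn, the log2 differences were -0.84 to 0.28 for *Drd2*, -0.55 to 0.69 for *Penk* and -0.023 to 0.14 for *Fezf2*, each turning sign without mouse 1. They were -0.16 to 0.013 for *Stac*, turning without mouse 1 or 2, and -0.28 to 0.31 for *Rps12-ps3*, turning without mouse 2 or 4. With equal totals *Cx3cr1* was at 0.078 and *Stac* at 0.042. Of 36 list medians, 9 had the other sign under some alternative, the GABAergic, microglia, ionotropic and metabotropic glutamate, GABA-A, neuropeptide, Eph, potassium channel and activity lists. The fit without the mouse block turned the calls of *Sp8*, *Mbp*, *Cdc6* and *Dcx*, and of no other named gene. The causes were not tested. With 4 mice and estimated depth, small differences in weakly expressed genes were not detectable.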
